A study of Mus musculus with 10 samples.

Results

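The genes described here are 39 transcripts of the amino acid response in mouse pancreas: 6 regulators and stress-response genes around the transcription factor ATF4, 8 enzymes of amino acid synthesis and folate metabolism, 7 amino acid carriers and 18 cytosolic aminoacyl-tRNA synthetases. They were chosen by gene symbol. All 39 were listed among the 24062 genes of the deposited counts, and all 39 had at least 5 counts in every library, as did 13882 genes in all. The study examined pancreas at postnatal day 5 (P5) from 5 wild type (WT) C57BL/6 mice and 5 KSR23 (KSR23+) mice on the same background, with 1 library per mouse. KSR23 mice carry the R23 cassette for IL-23 together with Cre driven by the human keratin 14 promoter, which is active in keratinocytes. Of the keratinocyte genes, Krt5 had 0 counts in every library, and Krt14 was at 2.03 ± 0.719 CPM (counts of a gene per 1000000 counts, SD) in WT and 2.21 ± 0.465 CPM in KSR23 pancreas.

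ATF4 is the effector of the integrated stress response. When the translation factor eIF2 is phosphorylated, for example by GCN2 on uncharged tRNA or by PERK in a stressed endoplasmic reticulum, most translation falls while the Atf4 transcript is translated more. For this reason the level of Atf4 mRNA alone does not show the amount or activity of the protein. ATF4 then binds C/EBP-ATF response elements in genes for amino acid synthesis, uptake and tRNA charging. Pancreatic acinar cells, which secrete large amounts of digestive enzymes, have a high demand for charged tRNA.

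The core of that response element, TGATGNAA read on either strand, was searched in RefSeq promoters of GRCm38.p6, each 300 bases long with 250 before and 50 after the transcription start. Promoters were matched for 30 of the 39 genes, and not for Slc7a3, Slc7a5, Cars, Hars, Lars, Nars, Rars, Vars and Wars. The element core was present in 11 of these 30, or 36.7%, and in 4.51% of the 27025 genes in the promoter table. The list was drawn up around ATF4 targets, so its higher share was in part set by that choice and was not tested. The 11 genes were Atf3, Trib3, Chac1, Asns, Pycr1, Slc1a4, Aars, Gars, Iars, Tars and Yars. For each gene, 30 bases around a match are shown because the core is the stretch these genes share. Each is written in the direction in which the core (capitals) reads TGATGNAA. This was the strand of the gene for Asns, Pycr1 and Yars and the opposite strand for the others.
Asns (chr6:7693214-7693243): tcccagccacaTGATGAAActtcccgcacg
Pycr1 (chr11:120643833-120643862): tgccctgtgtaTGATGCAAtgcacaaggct
Chac1 (chr2:119351038-119351067): cctggcaggagTGATGCAAcggcagggaag
Trib3 (chr2:152344028-152344057): ccccgcccggcTGATGTAAacctgagctaa
Atf3 (chr1:191183425-191183454): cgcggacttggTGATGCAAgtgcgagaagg
Slc1a4 (chr11:20332699-20332728): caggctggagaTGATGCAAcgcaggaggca
Aars (chr8:111033840-111033869): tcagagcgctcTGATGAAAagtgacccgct
Gars (chr6:55037960-55037989): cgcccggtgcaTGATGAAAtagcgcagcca
Iars (chr13:49682126-49682155): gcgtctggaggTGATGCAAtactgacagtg
Tars (chr15:11399655-11399684): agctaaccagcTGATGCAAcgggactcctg
Yars (chr4:129189895-129189924): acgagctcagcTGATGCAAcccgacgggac

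A match of these letters is a description of the sequence and does not show that a factor binds there. The genes with the core did not share a direction. Asns and Pycr1 fell in KSR23 mice, Aars rose, and the other 8 were not called. The 250 bases upstream of Asns and Pycr1, the synthesis enzymes that fell most, are given in full, with the core in capitals. Both lie on the minus strand and are written 5′ to 3′ along the gene.
Asns (chr6:7693210-7693459): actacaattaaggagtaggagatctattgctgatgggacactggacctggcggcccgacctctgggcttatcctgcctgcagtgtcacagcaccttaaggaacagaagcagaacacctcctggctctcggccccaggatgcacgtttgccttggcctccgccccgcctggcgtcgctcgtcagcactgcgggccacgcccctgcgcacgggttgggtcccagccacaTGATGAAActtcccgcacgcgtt
Pycr1 (chr11:120643749-120643998): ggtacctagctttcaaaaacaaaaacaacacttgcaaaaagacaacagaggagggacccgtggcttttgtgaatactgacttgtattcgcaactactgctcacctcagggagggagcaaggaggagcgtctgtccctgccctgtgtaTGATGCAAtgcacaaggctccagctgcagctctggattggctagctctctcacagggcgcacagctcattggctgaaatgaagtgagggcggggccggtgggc

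In the Asns promoter the core began at position -23 from the transcription start, and in the Pycr1 promoter at -103. The STAT site core TTCNNNGAA was present in 5 of the 30 matched promoters (Shmt2, Aldh18a1, Slc7a1, Aars and Kars) and in 9.55% of all genes in the table. The core of the interferon-stimulated response element, a pair of GAAA blocks 2 bases apart, was present in Qars alone of the 30, and in 3.99% of all genes in the table.

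Levels in CPM were scaled between libraries by the TMM method. A gene was called when its p, from the quasi-likelihood F test of edgeR and adjusted by the Benjamini-Hochberg method over all 13882 genes, was under 0.05. Libraries held 26830235 to 33189132 gene counts in WT pancreas against 16715976 to 57784136 in KSR23 mice. KSR23 replicate 3 was the shallowest library and scored 33.4 on principal component 2, where the other 9 libraries scored from -13.3 to 6.42. Acinar marker genes were abundant in all 10 libraries, with a sum of 202200 to 225400 CPM over 10 genes in WT pancreas against 150800 to 185600 in KSR23 mice, and 8 of the 10 were called lower and 1 higher. Of the other marker lists, 6 of 7 duct genes and 6 of 7 tested myeloid genes were called higher, and 5 of 7 islet genes were called lower with 1 higher. Of 6 mesenchymal genes 1 was called higher, of 4 endothelial genes 1 was called higher and 2 lower, and of 4 tested lymphoid genes 1 was called in each direction. In whole tissue, fewer cells of a type and less RNA per cell cannot be told apart.

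Most of the synthesis genes fell, a minority of the synthetase genes rose and none fell, and Atf4 itself was not called. Over all 13882 tested genes, 31.0% were called, 16.2% higher and 14.8% lower in KSR23 mice. Of the 39 genes described here, 15 were called, or 38.5%, of which 9 were higher and 6 lower. All 6 that fell were among the 8 synthesis enzymes, and 6 of the 9 that rose were among the 18 synthetases. The median log2 fold change (log2 FC, KSR23 over WT) was 0.033 over the 39 genes and -0.0056 over all tested genes. The CPM ranges of the groups did not overlap in 7 of the 39 genes, or 17.9%, and in 19.4% of all tested genes. These were 4 genes that rose (Atf5, Qars, Vars and Wars), against a background of 10.7%, and 3 that fell (Asns, Psph and Pycr1), against 8.74%. Scaling by library totals alone moved the median of all genes to 0.087 and gave 3075 genes higher and 1161 lower over all, in place of 2250 and 2049, and 13 higher and 4 lower among the 39.

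**Figure D1:**
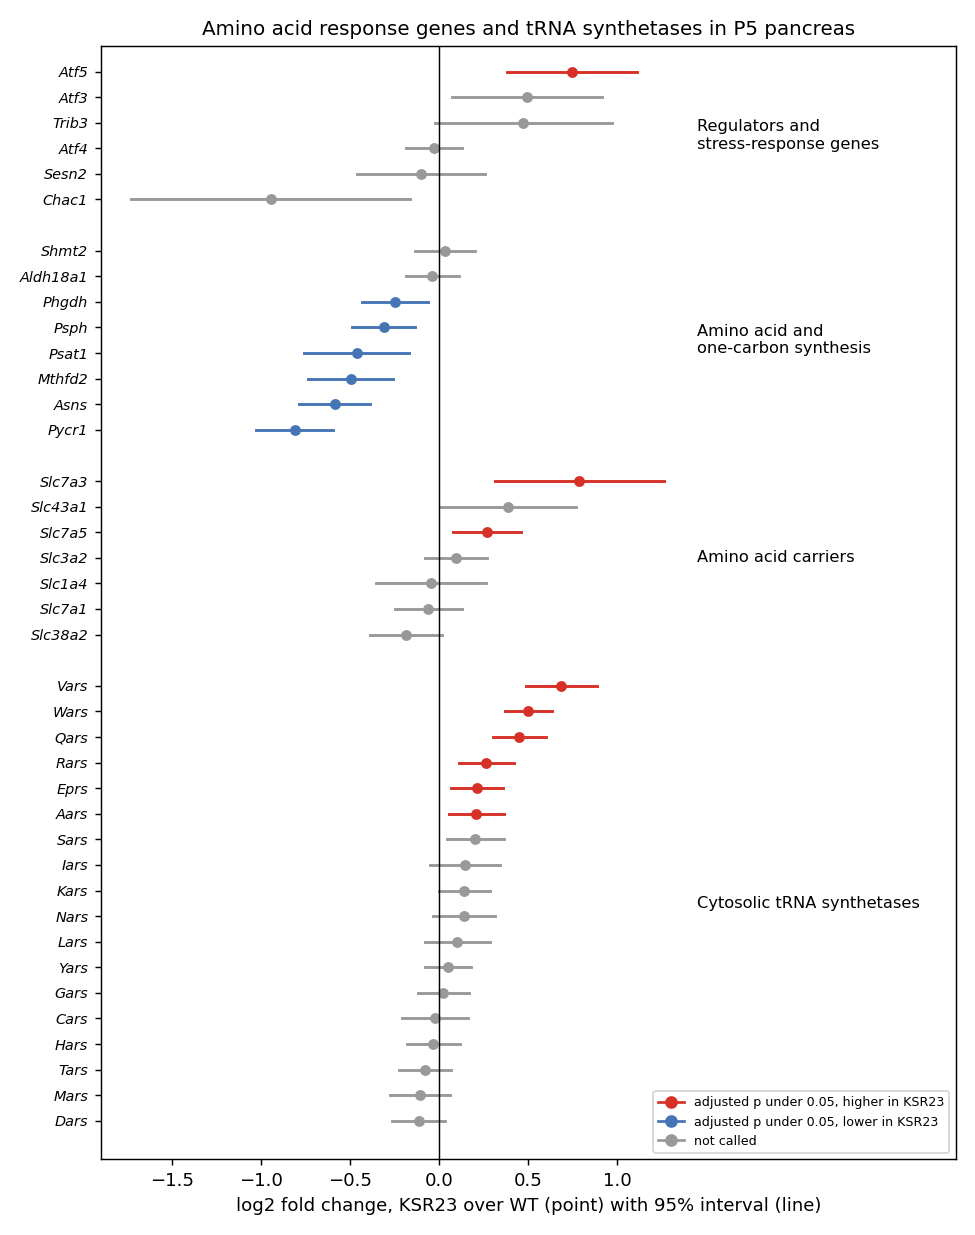
Log2 fold change of each of the 39 genes in KSR23 against WT pancreas (point) with its 95% interval (line), grouped by function and ordered within each group. Red genes were called higher and blue genes lower at an adjusted p under 0.05, and the blue points all lie in the synthesis group.

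The enzymes of amino acid synthesis showed the most uniform change. Of 8 genes, 6 were called lower, or 75.0%, against 14.8% of all tested genes. None was called higher, and their median log2 FC was -0.39. Scaling by library totals alone called 4 of the 8 lower, and 1161 of all 13882 tested genes. Asns encodes asparagine synthetase, which makes asparagine from aspartate and glutamine (chromosome 6, 7675169 to 7693254, GENCODE M21 on GRCm38). It had 466, 484, 405, 473 and 398 CPM in WT replicates 1 to 5 and 299, 326, 248, 254 and 355 CPM in KSR23 replicates 1 to 5. The highest KSR23 mouse lay under the lowest WT mouse. The level fell from 445 ± 40.5 to 297 ± 46.2 CPM (SD, n = 5 each), a log2 FC of -0.59 (SE 0.0948, edgeR adjusted p = 0.00013).

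Pycr1 encodes the mitochondrial reductase for the last step of proline synthesis (chromosome 11, 120635712 to 120643769). It had 108, 102, 89.7, 96.6 and 98.3 CPM in WT pancreas against 49.0, 60.7, 50.2, 48.1 and 73.7 CPM in the KSR23 mice, without overlap. Its log2 FC of -0.81 was the largest fall among the called genes of the set (SE 0.102, edgeR adjusted p = 8.51e-06). Aldh18a1, which encodes the enzyme upstream of it in the same pathway, was at 128 ± 3.79 CPM in WT pancreas against 125 ± 12.6 CPM in KSR23 mice. Its log2 FC was -0.038 (0.056 when scaled by library totals alone), with a 95% interval from -0.19 to 0.11, so only 1 of the proline synthesis genes in the set was called.

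The 3 enzymes that make serine from a glycolytic intermediate were all called lower. Phgdh, for the first step, had a log2 FC of -0.25 (edgeR adjusted p = 0.0384), Psat1, for the second, -0.46 (edgeR adjusted p = 0.0184), and Psph, for the last, -0.31 (edgeR adjusted p = 0.0091). Psph had 28.5, 27.9, 26.4, 26.6 and 27.4 CPM in WT pancreas against 21.5, 23.7, 21.7, 18.4 and 24.9 CPM in the KSR23 mice, and its groups did not overlap. Psat1 overlapped between the groups, since KSR23 replicates 2 and 5 were at 58.8 and 65.8 CPM and the lowest WT mouse at 55.7 CPM. Phgdh overlapped as well, with 119 to 170 CPM in KSR23 mice and 156 to 187 CPM in WT mice.

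The serine calls were the least firm of the falls. With a single mouse left out, Phgdh lost its call without WT replicate 1, 2 or 5 or KSR23 replicate 1, 3 or 4 (edgeR adjusted p up to 0.104). Psat1 lost it only without WT replicate 2 (edgeR adjusted p = 0.0597), and Psph kept its call in these fits. With both WT replicates 1 and 2 left out, all 3 lost their calls, with adjusted p values of 0.258 for Phgdh, 0.164 for Psat1 and 0.0543 for Psph, and log2 FC of -0.16, -0.32 and -0.28. With libraries scaled by their total alone, Phgdh and Psph also lost their calls (edgeR adjusted p = 0.165 and 0.0562). Of the 75-base windows of their transcripts, 52.6% were unique to Phgdh, which has processed pseudogenes, and 77.2% to Psph, against at least 90% in 36 of the 39 genes.

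Shmt2 and Mthfd2 encode mitochondrial enzymes that carry the carbon of serine into folate metabolism. Mthfd2 had 58.7, 56.9, 57.1, 58.0 and 36.6 CPM in WT pancreas against 32.1, 40.0, 36.5, 37.3 and 43.4 CPM in the KSR23 mice. The groups overlapped through WT replicate 5 alone. Its log2 FC was -0.50 (SE 0.113, edgeR adjusted p = 0.00278). Shmt2, by contrast, was at 65.1 ± 4.06 and 66.5 ± 8.12 CPM, with a log2 FC of 0.033 and a 95% interval from -0.14 to 0.20.

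**Figure D2:**
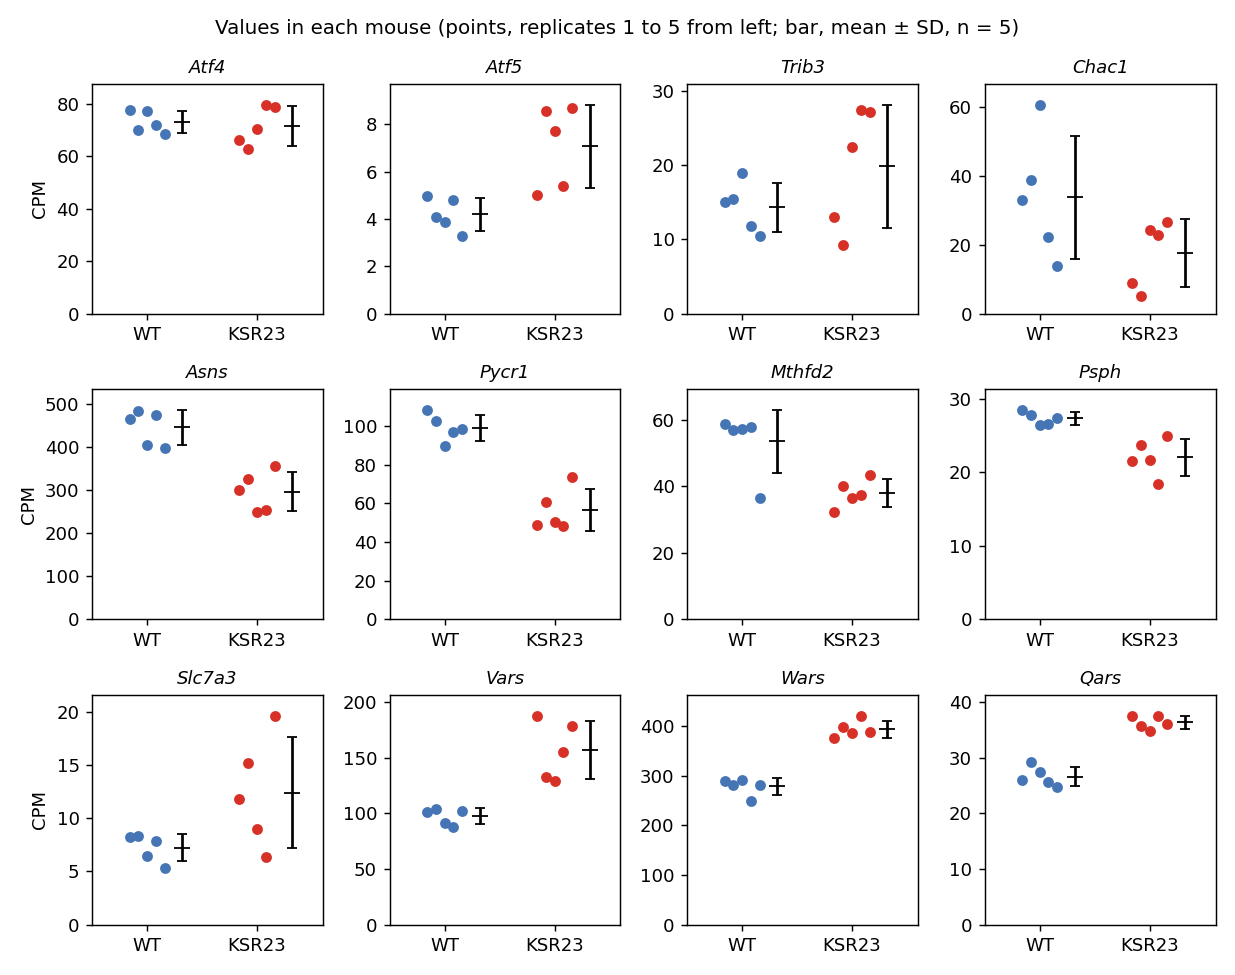
Level in CPM of 12 of the genes in each mouse, with replicates 1 to 5 from left to right within each group and the mean ± SD of 5 mice as a bar. Asns, Pycr1 and Psph separate downwards, Vars, Wars and Qars separate upwards, and Chac1 varies several-fold among mice of the same group. Trib3 runs from 10.5 to 18.9 CPM in WT mice and from 9.19 to 27.4 CPM in KSR23 mice.

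The synthetase calls were all rises. Of 18 genes, 6 were called higher, or 33.3%, and none lower, and the median log2 FC was 0.14. Over all tested genes, 16.2% were called higher and 14.8% lower, or 31.0% in either direction. Scaling by library totals alone called 9 of the 18 higher, and 3075 of all 13882 tested genes. Among KSR23 mice, replicate 5 was the highest for 12 of the 18 and replicate 3 the lowest for 13. Among WT mice, replicate 5 was the lowest for 10. The count of called synthetases is therefore not a count of independent results. Vars, which charges valine tRNA (chromosome 17, 35000987 to 35016322), rose most. It had 102, 104, 91.5, 88.0 and 102 CPM in WT pancreas against 188, 133, 129, 155 and 178 CPM in the KSR23 mice. The lowest KSR23 mouse was above the highest WT mouse, and the log2 FC was 0.69 (SE 0.0956, edgeR adjusted p = 2.65e-05).

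Wars charges tryptophan tRNA and is known as an interferon-induced gene (chromosome 12, 108860030 to 108894174). It had 291, 282, 291, 250 and 282 CPM in WT pancreas against 377, 398, 387, 422 and 389 CPM in the KSR23 mice. The groups were far apart relative to their spread, with 279 ± 17.0 and 394 ± 17.1 CPM (SD, n = 5 each). The log2 FC was 0.50 (SE 0.0626, edgeR adjusted p = 7.76e-06), and 0.46 to 0.52 over the fits without a single mouse. All 12 genes of a list of interferon response genes were also called higher, against 16.2% of all tested genes. The list was chosen with earlier results of these data known, so this count was in part set by that choice. Their median log2 FC was 1.34, and their sum was 72.5 to 87.2 CPM in WT pancreas against 166 to 226 CPM in KSR23 mice. Myeloid marker genes summed to 213 to 283 CPM in WT pancreas against 263 to 624 CPM in KSR23 mice, with none of the 7 at 0 in all libraries. Their part in the rise of Wars was not tested.

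Qars, for glutamine tRNA, had 26.0, 29.3, 27.4, 25.7 and 24.7 CPM in WT pancreas against 37.6, 35.7, 34.8, 37.6 and 36.1 CPM in the KSR23 mice. The groups did not overlap, and the log2 FC was 0.45 (SE 0.0701, edgeR adjusted p = 8.97e-05). Vars, Wars and Qars were the 3 synthetases without overlap, or 16.7% of the 18, against 19.4% of all tested genes.

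Rars (arginine), Eprs (glutamate and proline) and Aars (alanine) were called with smaller rises, at log2 FC of 0.27, 0.21 and 0.21 (edgeR adjusted p = 0.0112, 0.0264 and 0.0388). Each had 4 of 5 KSR23 mice above all WT mice, and the calls of Aars and Eprs were lost in several fits. With the replicate number as a block, the adjusted p was 0.075 for Aars and 0.0615 for Eprs, and with a single mouse left out it reached 0.107 and 0.0816. Of the windows of Aars, 77.9% were unique, since its longest transcript runs into Exosc6. The 12 synthetases that were not called had 95% intervals of log2 FC that lay between -0.28 and 0.36 in all. Sars, for serine tRNA, was the nearest to a call, at a log2 FC of 0.20 (edgeR adjusted p = 0.0521).

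The products of 8 of the synthetase genes (Eprs, Iars, Lars, Mars, Qars, Rars, Kars and Dars) are known to sit together in a multi-synthetase complex. This split was made after the values were seen. Of these, 3 were called higher (Eprs, Qars and Rars), with a median log2 FC of 0.14. Of the other 10 synthetases 3 were called higher (Aars, Vars and Wars), with a median of 0.095. Over all tested genes 16.2% were called higher, and the 2 parts were not compared by a test. The scaffold genes of the complex, Aimp1, Aimp2 and Eef1e1, were not called, with log2 FC of 0.13, 0.068 and -0.060. Of the phenylalanine synthetase subunits, Farsb was called higher, at a log2 FC of 0.31 (edgeR adjusted p = 0.00605), and Farsa was at 0.20 (edgeR adjusted p = 0.0529). Tarsl2, a relative of Tars, was called lower at a log2 FC of -0.35 (edgeR adjusted p = 0.0439).

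The 17 mitochondrial synthetases, which charge tRNA inside the organelle, were counted in the same way. Only Tars2 among them was called, or 5.88%, against 31.0% of all tested genes. Its log2 FC was 0.26 (edgeR adjusted p = 0.0158). Their median log2 FC was 0.080. The difference between the mitochondrial and cytosolic genes was not tested.

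Per length of transcript, the synthetases covered a wide range of levels. In WT mice Wars was highest, at 98.5 ± 6.01 CPM per kb, followed by Gars (glycine) at 65.6 ± 2.998, Nars (asparagine) at 43.7 ± 4.19, Dars (aspartate) at 40.5 ± 3.55 and Kars (lysine) at 38.8 ± 3.31 CPM per kb (SD, n = 5). Qars was lowest, at 9.5 ± 0.628 CPM per kb. Of the 17 neighbouring pairs in this order, the ranges over the 5 WT mice were apart in 4 (Wars and Gars, Gars and Nars, Cars and Aars, Iars and Qars) and overlapped in 13. Aars was divided by the length of its longest transcript, 5.75 kb, which runs into Exosc6. Its place in the order and its gap to Cars therefore depend on that length. In KSR23 mice Wars, at 139 ± 6.03 CPM per kb, Gars and Nars kept the first 3 places, and 2 neighbouring pairs were apart. Vars moved from rank 10 at 23.5 ± 1.72 CPM per kb to rank 5 at 37.9 ± 6.33 CPM per kb.

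**Figure D3:**
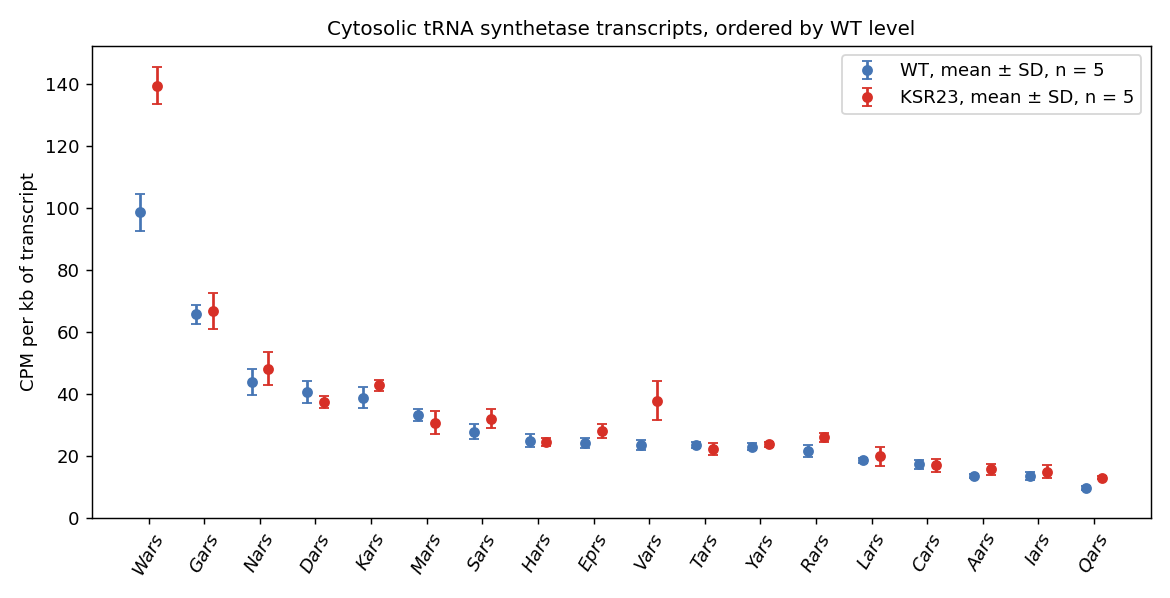
Levels of the 18 cytosolic synthetases in CPM per kb of the longest coding transcript, as mean ± SD of 5 mice per group, ordered by the WT mean. Wars stands above all others in both groups, and Vars is the gene that moves furthest in the order.

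Among the synthesis enzymes, Asns was by far the most abundant per length, at 221 ± 20.1 CPM per kb in WT pancreas against 147 ± 22.9 in KSR23 mice. Phgdh came next, at 90.2 ± 7.45 and 75.9 ± 10.6 CPM per kb. Atf4 was the most abundant of the 6 regulators, at 42.3 ± 2.45 and 41.4 ± 4.33 CPM per kb.

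Ratios of synthesis to synthetase genes were also taken within each library, where the scaling between libraries plays no part. The ratio of Asns to Wars in CPM was 1.6, 1.72, 1.39, 1.90 and 1.41 in WT pancreas against 0.795, 0.819, 0.641, 0.602 and 0.915 in the KSR23 mice. Asns had already separated the groups downwards and Wars upwards, so this ratio had to separate them. For the summed CPM of the 8 synthesis enzymes over that of the 18 synthetases, the ratio was 0.625 ± 0.0295 in WT pancreas against 0.409 ± 0.0384 in KSR23 mice (SD, n = 5 each). Without Asns and Wars it was 0.434 ± 0.0147 and 0.322 ± 0.0261. The full synthesis and synthetase sums likewise separated the groups in opposite directions, so their ratio had to differ. These ratios describe the genes, were not among the planned results and were given no test. The summed acinar markers were also lower in every KSR23 mouse than in any WT mouse, and their part in these ratios was not tested.

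**Figure D4:**
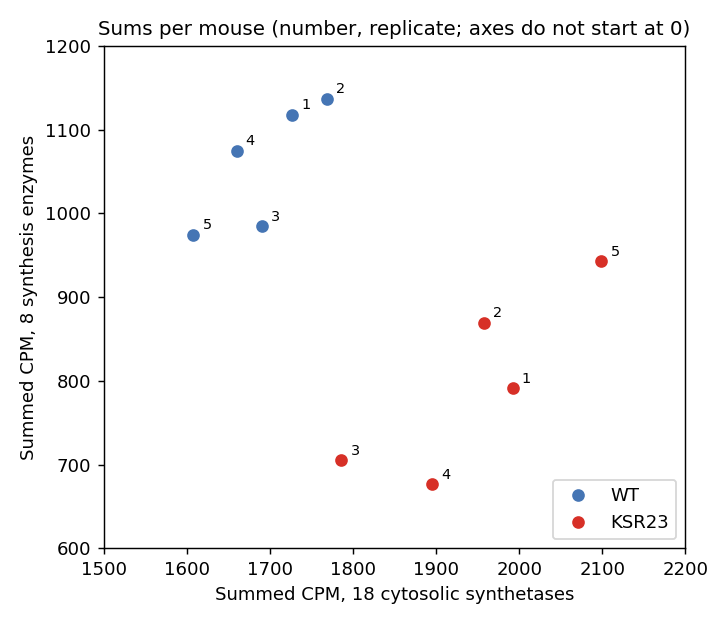
Summed CPM of the 8 synthesis enzymes against that of the 18 cytosolic synthetases, with 1 point per mouse and its replicate number. The synthesis sum was 974.5 to 1137 CPM in WT pancreas against 677 to 943 CPM in KSR23 pancreas, and the synthetase sum 1608 to 1769 against 1786 to 2099 CPM.

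Of the 6 regulators and stress-response genes, 1 was called, or 16.7%, against 31.0% of all tested genes. Atf4 (chromosome 15, 80255184 to 80257541) had 77.6, 69.8, 77.1, 71.7 and 68.3 CPM in WT pancreas against 66.0, 62.9, 70.2, 79.6 and 78.6 CPM in the KSR23 mice. The groups overlapped throughout, and the log2 FC was -0.028, with a 95% interval from -0.19 to 0.13 (edgeR adjusted p = 0.812). Scaling by library totals alone turned its sign, to 0.064. The protein was not measured here.

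Atf5 encodes a related transcription factor that is also controlled at translation. It had 4.98, 4.09, 3.86, 4.81 and 3.28 CPM in WT pancreas against 5.01, 8.56, 7.72, 5.40 and 8.68 CPM in the KSR23 mice. The groups did not overlap, although KSR23 replicate 1 exceeded the highest WT mouse by a narrow margin. The log2 FC was 0.75 (SE 0.175, edgeR adjusted p = 0.0035). It was the only gene of the 6 whose groups did not overlap, or 16.7%, against 19.4% of all tested genes.

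Chac1, Trib3, Sesn2 and Atf3 varied more among mice of 1 group than the synthetases did. The coefficient of variation among WT mice was 53.1% for Chac1, against 4.28% to 10.3% for the 18 synthetases. Chac1, which encodes a glutathione-degrading enzyme, had 33.1, 38.9, 60.8, 22.2 and 13.9 CPM in WT pancreas against 8.83, 5.28, 24.4, 22.9 and 26.7 CPM in the KSR23 mice. Its log2 FC was -0.94, the lowest of the 39 genes, but it was not called (SE 0.372, edgeR adjusted p = 0.0622). The likelihood ratio test, the fit without a filter on low counts and the fits without WT replicate 5, KSR23 replicate 3 or KSR23 replicate 5 each called it lower, with adjusted p values from 0.0241 to 0.0498.

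Trib3 encodes a pseudokinase that restrains ATF4. It had 15.0, 15.4, 18.9, 11.8 and 10.5 CPM in WT pancreas against 13.1, 9.19, 22.5, 27.4 and 27.2 CPM in the KSR23 mice. KSR23 replicates 1 and 2 lay within or below the WT range and the other 3 above it. Chac1 and Sesn2, which encodes a leucine sensor of the mTORC1 pathway, were lowest in the same 2 KSR23 mice as Trib3, and WT replicate 3 was the highest WT mouse for Chac1, Trib3, Sesn2 and Atf3. The log2 FC was 0.47 for Trib3 (edgeR adjusted p = 0.139), -0.10 for Sesn2 (edgeR adjusted p = 0.698) and 0.49 for Atf3 (edgeR adjusted p = 0.0712). Atf3 was called higher in 5 of 20 alternative fits, among them DESeq2 (DESeq2 adjusted p = 0.047), and Trib3 in 1, the fit without KSR23 replicate 2 (edgeR adjusted p = 0.0144).

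**Figure D5:**
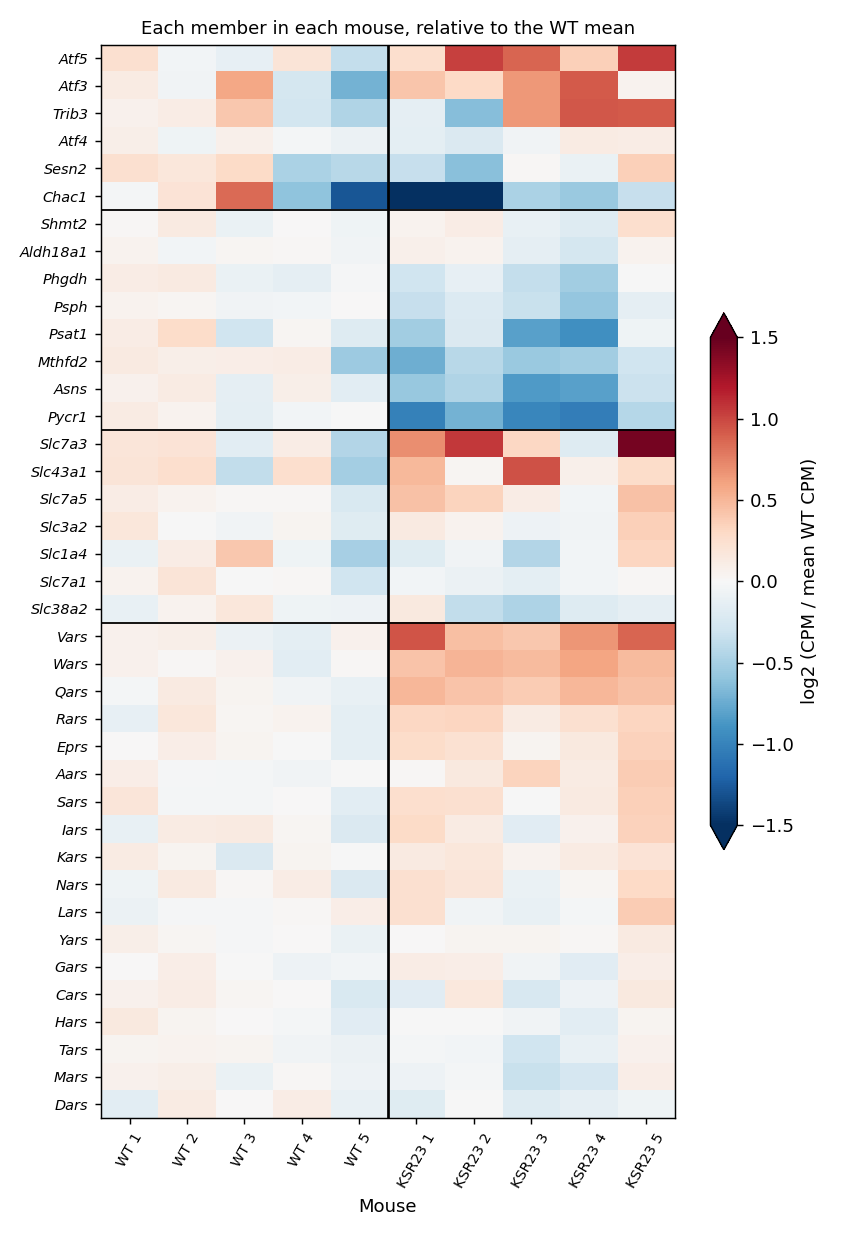
Each of the 39 genes (from top to bottom, grouped by function) in each of the 10 mice (from left to right), as log2 of its CPM over the mean WT CPM, with red above and blue below the WT mean. The colour scale ends at 1.5 in both directions. Asns, Pycr1, Psph, Mthfd2 and Chac1 are among the genes below the WT mean in all 5 KSR23 mice, Chac1 by amounts that differ widely. Trib3 is below it in KSR23 replicates 1 and 2 and above it in replicates 3, 4 and 5.

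Of the 7 amino acid carriers, 2 were called higher and none lower, or 28.6% called, against 31.0% of all tested genes. No carrier separated the groups without overlap, against 19.4% of all tested genes. Slc7a3 encodes a carrier of arginine and lysine. It had 8.24, 8.31, 6.46, 7.84 and 5.33 CPM in WT pancreas against 11.8, 15.1, 9.01, 6.32 and 19.6 CPM in the KSR23 mice, of which replicate 4 lay within the WT range. The log2 FC was 0.78 (SE 0.225, edgeR adjusted p = 0.0133), and it was 0.55 without KSR23 replicate 5, where the call was lost (edgeR adjusted p = 0.0525). Slc7a1, the more widely expressed carrier of the same amino acids, was at 20.6 ± 2.49 and 19.8 ± 0.822 CPM, with a log2 FC of -0.060 and a 95% interval from -0.25 to 0.13.

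Slc7a5 and Slc3a2 encode the light and heavy chains of the large neutral amino acid exchanger. Slc7a5 was called, at a log2 FC of 0.27 (edgeR adjusted p = 0.0319), with 112 to 142 CPM in WT pancreas against 127 to 178 CPM in KSR23 mice. Of the 10 fits without a single mouse, 6 did not call it, and the adjusted p was 0.0984 at most. The heavy chain gene was at 178 ± 15.9 and 190 ± 23.9 CPM, with a log2 FC of 0.095 and a 95% interval from -0.082 to 0.27. Slc38a2, Slc1a4 and Slc43a1, which carry neutral amino acids, had log2 FC of -0.18, -0.046 and 0.39 and were not called.

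Of 16 genes for eIF2 kinases, eIF2 and its exchange factor, and feedback on eIF2 phosphorylation 3 were called higher and 1 lower, or 25.0% in all, against 31.0% of all tested genes. The kinase genes Eif2ak3 (PERK) and Eif2ak4 (GCN2) were not called, at log2 FC of 0.019 and 0.23. The phosphatase subunits that end the response went apart. Ppp1r15a, the stress-induced one, was called higher at a log2 FC of 0.43 (edgeR adjusted p = 0.0127), and Ppp1r15b, the constitutive one, lower at -0.47 (edgeR adjusted p = 0.00044). Gcn1l1, a co-activator of GCN2, and Dnajc3, an inhibitor of PERK, were called higher at log2 FC of 0.39 and 0.22 (edgeR adjusted p = 0.0308 and 0.0412). Ddit3, which encodes CHOP, had 4.32 ± 0.267 and 5.44 ± 1.07 CPM and was not called (log2 FC 0.33, edgeR adjusted p = 0.101). It overlaps Mars on the opposite strand over 1.99% of the exonic bases of Mars.

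A list of 23 other known ATF4 and CHOP targets also went both ways. Of the 22 with enough counts to be tested (Fgf21 was not), 7 were called higher and 5 lower, with a median log2 FC of 0.024. This was 54.5% called, against 31.0% of all tested genes. The highest were Cebpb, Nupr1 and Cth, at log2 FC of 1.22, 0.76 and 0.71 (edgeR adjusted p = 1.23e-07, 2.62e-05 and 0.00162). Cebpb encodes a transcription factor that also responds to cytokines, Nupr1 a stress protein first found in pancreatitis, and Cth the enzyme that makes cysteine from cystathionine. The lowest were Slc7a11, the cystine carrier that pairs with Slc3a2, Bcat1, a branched-chain aminotransferase, and Cbs, which makes cystathionine, at -1.52, -1.26 and -0.50 (edgeR adjusted p = 0.000117, 0.000131 and 2.67e-05). Slc7a11 had 4.44 ± 1.59 CPM in WT pancreas against 1.52 ± 0.312 CPM in KSR23 mice (SD, n = 5 each).

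Chaperone and related genes of the unfolded protein response, which shares the PERK branch with ATF4, gave 7 higher and 1 lower of 10 tested. This was 80% called, against 31.0% of all tested genes, with a median log2 FC of 0.46. Xbp1 and Hyou1 were highest, at 0.91 and 0.89 (edgeR adjusted p = 4.7e-07 and 0.000245), and Edem1 was the gene called lower, at -0.75 (edgeR adjusted p = 3.8e-08). These lists of related genes were also chosen with earlier results of these data known, and no test compared them with each other.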

How the data were processed

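Per the labels and the study's methods, total pancreas RNA was primed with oligo-dT (SMART-Seq v4, Nextera XT), sequenced as single-end reads and aligned to mm10 with TopHat2 2.1.0. The authors deposited HTSeq 0.6.1p1 counts per gene (strict intersection, unique alignments), without normalization, so reads shared with a near-identical copy are not counted. Such libraries do not mark strand. The strand setting and annotation used are not given in the sources used here. Alignments given to no gene, 5 tallies per file, were left out of library sizes. Non-unique alignments made up 49.6% to 53.7% of each WT file and 38.5% to 42.5% of each KSR23 file.

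Genes with under 5 counts in any library were removed, and the groups were compared with edgeR 4.0.16 in R 4.3.3 (TMM, quasi-likelihood F test, Benjamini-Hochberg adjustment over all genes). A standard error is the log2 FC over the square root of F. The calculation was tested on simulated counts. The floor of 3 counts, which covers counting error only, corresponds to 0.0519 to 0.179 CPM. The labels do not state separate litters, so p-values measure the spread between these 5 libraries per group. No library was a copy of another, since within groups the chi-square of paired libraries over its degrees of freedom was 11.4 or more. The members and gene lists were chosen with earlier results of these data known. Values in every mouse were planned for Atf4 and for called genes with an absolute log2 FC of at least 0.5, and those of the other genes, as well as the split by synthetase complex, were added after the values were seen. From related lists, the 3 highest and 3 lowest called genes and a few fixed ones were named. As alternatives, mice were left out, replicate numbers were used as a block, scalings and filters were varied, changes were tested against a threshold of 0.5 on the log2 scale, and DESeq2 1.42.0 and edgeR's likelihood ratio test were run. Of the promoter windows that held the core, 1 is not reported here.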

Additional observations from a re-analysis of the deposited data

Results flagged for a closer look

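Of 78 groups of 5 values, 2 had a mouse far from the other 4, where chance gives about 3.9 (about 1 in 20). For Mthfd2 this was WT replicate 5, which had 36.6 CPM while the other WT mice had 56.9 to 58.7 CPM. For Wars it was WT replicate 4, which had 250 CPM (249.7) while the others had 282 to 291 CPM. The cause was not tested.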

How the results depend on the processing

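Of 15 called genes, 8 (Atf5, Asns, Mthfd2, Pycr1, Qars, Rars, Vars and Wars) kept their call in 19 alternatives, and 7 lost it in at least 1. Against a log2 FC of 0.5 itself, 0 genes were called higher (0 regulators, 0 carriers and 0 synthetases) and 1 lower, the synthesis enzyme Pycr1. Over all 13882 genes that test called 437 higher and 263 lower. Without both WT replicates 1 and 2, 3 of the synthesis enzymes, and 3 genes in all, were called lower. Of the 13982 genes tested in that fit, 1785 were called higher and 1536 lower. With libraries scaled by their total alone, 13 of the 39 genes were called higher and 4 lower, and over all genes 3075 were higher and 1161 lower in place of 2250 and 2049. DESeq2, that scaling and the replicate block each called 2 regulators higher, and the likelihood ratio test and the fit without a filter each called 1 regulator lower. The replicate number as a block called 8 genes higher and 6 lower, of them 4 synthetases, and over all 13882 genes 1998 higher and 1751 lower. Same-numbered mice correlated from -0.111 to 0.0661, which shows no pairing by number but cannot exclude shared litters. The paper describes the WT mice as littermates of the KSR23 mice, and which mice shared a litter is not stated. With each mouse left out in turn, 6 to 10 of the 39 genes were called higher and 4 to 7 lower. Over all tested genes these fits called 1846 to 2210 higher and 1651 to 1973 lower. By group this was 1 to 2 regulators higher and 0 to 1 lower, 4 to 6 synthesis enzymes lower, 0 to 2 carriers higher and 0 to 1 lower, and 4 to 7 synthetases higher. The cause was not tested.

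Among genes that were not called, 22 fits turned the sign of the log2 FC. With libraries scaled by their total alone this was Atf4 (0.064), Aldh18a1 (0.056), Slc7a1 (0.032), Slc1a4 (0.040), Cars (0.066), Hars (0.061) and Tars (0.013). Without both WT replicates 1 and 2 it was Sesn2 (0.056), Slc7a1 (0.031), Cars (0.039) and Hars (0.036). Over the fits that left out 1 mouse, log2 FC ran from -0.070 to 0.015 for Atf4, -0.029 to 0.084 for Shmt2, -0.075 to 0.014 for Aldh18a1, -0.25 to 0.0053 for Sesn2, -0.16 to 0.069 for Slc1a4, -0.083 to 0.025 for Cars, -0.0078 to 0.069 for Gars and -0.080 to 0.0079 for Hars.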
